A study of Homo sapiens with 18 samples.

Results

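The nuclear genes for subunits of respiratory chain complexes I to IV were followed in 18 RNA-seq libraries of MiaPaCa-2, an established human pancreatic cancer cell line. Members were all gene symbols of the NDUFA, NDUFB, NDUFC, NDUFS and NDUFV families, SDHA to SDHD, the UQCR genes and the widely expressed COX isoforms. They came to 59 symbols on 63 of the 57445 rows of the count table, 36 for complex I, 4 for complex II, 8 for complex III and 11 for complex IV. NDUFA4 was counted with complex IV, of which it is a subunit despite its name. The other 4 rows carried the symbols SDHD, NDUFB8, UQCR11 and NDUFA7 a second time and are read-through genes in GENCODE 29. They held at most 1.33 CPM, counts scaled to the size of the library, in any library and are not used below. All 59 symbols passed the filter on low counts, among 16187 genes tested.

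The study concerns perineural invasion, the spread of cancer cells along nerves. After injection in the sciatic nerve, cells named leaders and laggers were collected, and leaders were grown in vitro and injected again, for 4 passages. The groups, with 3 libraries each, were leaders of passages 1, 2, 3 and 4, laggers of passage 1, and the parental line, which was never injected. Every group is the same line with genotype WT and no agent is named. The parental group is labelled in vitro and the others in vivo with their passage, so injection, recovery from the nerve and passage cannot be told apart when a group is compared with the parental line. All groups come from 1 cell line, and the labels do not say whether replicates are separate animals or cultures, so p-values measure the spread between these libraries.

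The respiratory chain sits in the inner mitochondrial membrane. Complexes I and II pass electrons from NADH and succinate to ubiquinone, complex III passes them to cytochrome c and complex IV to oxygen, and complexes I, III and IV pump protons for ATP synthase. Complexes I, III and IV combine subunits encoded in the nucleus with others encoded in mitochondrial DNA, whereas complex II is wholly nuclear. In each of complexes I, III and IV a catalytic core is surrounded by many small supernumerary subunits, and complex II doubles as the succinate dehydrogenase of the tricarboxylic acid (TCA) cycle.

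Many nuclear respiratory chain genes have promoter sites for the factors NRF1, GABP and YY1. RefSeq promoters (GRCh38.p14, 250 bases before to 50 after the start) matched 50 of the 59 members. The palindromic core of the NRF1 site, searched on both strands as were the others, lay in 12 of the 50 (24.0%) against 6.28% of all 27305 promoters. The ETS core bound by GABP, CCGGAAGT, lay in 8 (16.0%) against 4.44%, and the YY1 core AAGATGGC in 8 (16.0%) against 3.03%. By complex, the NRF1 core was in 6 of 31 promoters of complex I, 2 of 3 of complex II, 4 of 7 of complex III and 0 of 9 of complex IV. A match describes the sequence only. The genes with the NRF1 core comprised 7 called higher and 2 called lower in passage 1 leaders than in the parental line, those with the ETS core 6 and 0, and all 50 with a promoter 36 and 4, so the examples shown do not stand for a split of the cores by direction. The 100 bases upstream of the start are shown for 2 genes that were higher in passage 1 leaders than in the parental line, COX5B and UQCRQ, and for 2 that were lower, SDHA and UQCRC1. Capitals mark the NRF1 core in SDHA and UQCRC1 and the ETS core in COX5B and UQCRQ. A further ETS core of COX5B begins in the last bases shown and runs past them, so it is not in capitals, and SDHA has 2 further NRF1 cores upstream of the bases shown.
COX5B, chr2:97645962-97646061, plus strand: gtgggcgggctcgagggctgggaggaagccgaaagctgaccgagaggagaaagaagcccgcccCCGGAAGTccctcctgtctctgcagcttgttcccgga
UQCRQ, chr5:132866542-132866641, plus strand: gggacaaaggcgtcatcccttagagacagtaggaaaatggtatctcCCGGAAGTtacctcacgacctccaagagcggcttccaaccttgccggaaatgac
SDHA, chr5:218220-218319, plus strand: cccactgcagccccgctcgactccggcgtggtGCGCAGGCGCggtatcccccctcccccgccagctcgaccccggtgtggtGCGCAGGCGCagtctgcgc
UQCRC1, chr3:48609647-48609746, minus strand: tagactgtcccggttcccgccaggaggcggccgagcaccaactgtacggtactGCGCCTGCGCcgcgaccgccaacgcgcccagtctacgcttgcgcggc

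Gene counts ran from 15113462 to 39373248 per library. The cell line's keratins KRT8 and KRT18 and vimentin were high in all libraries, at 1763 CPM or more, and CDKN2A was at 0 in all but 1. Markers of host cell types were read in 5 lists, of 9 or 10 measured genes each. The summed level of the fibroblast list was 326 to 2369 CPM in injected groups against 205 to 392 CPM in the parental line, through COL3A1 and COL1A2, while DCN was at most 12.0 CPM in any library. The summed muscle list was 3.73 to 392 CPM in injected groups against 4.66 to 7.53 CPM in the parental line. Its highest library, lagger replicate 2, owed this to MB at 330 CPM, while CKM was at most 0.125 CPM anywhere. The summed Schwann cell list was 36.2 to 99.993 CPM in injected groups against 241 to 291 CPM in the parental line, with S100B at most 0.141 CPM. The macrophage list summed to 2.41 to 35.4 CPM against 3.06 to 6.36 CPM, with LYZ at 0 in all injected libraries, and the endothelial list to 1.49 to 14.5 CPM against 3.29 to 6.39 CPM, with ERG at 0 in every library. Their part in the results below was not tested.

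Summed over all 59 genes, the nuclear subunits made up 8105 to 8629 CPM in passage 1 leaders, 5419 to 7005 CPM in passage 2, 5345 to 6928 CPM in passage 3, 5193 to 6847 CPM in passage 4, 7314 to 8632 CPM in laggers and 4716 to 5719 CPM in the parental line. Passage 1 leaders and laggers did not overlap the parental line, and the later leader passages did. The complexes differed. Complex IV subunits summed to 2335 ± 165 CPM in passage 1 leaders and 2112 ± 221 CPM in laggers, against 688 ± 173 CPM in the parental line (SD, n = 3 each), 3.39 and 3.07 times the parental mean. Complex I was 1.62 times the parental mean in passage 1 leaders and 1.61 times in laggers, and complex III 1.27 and 1.21 times. Complex II went the other way, at 732 ± 22.6 CPM in passage 1 leaders against 864 ± 45.5 CPM in the parental line, 0.848 times. In bulk RNA a change in the make-up of the cells and a change per cell cannot be told apart.

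**Figure D1:**
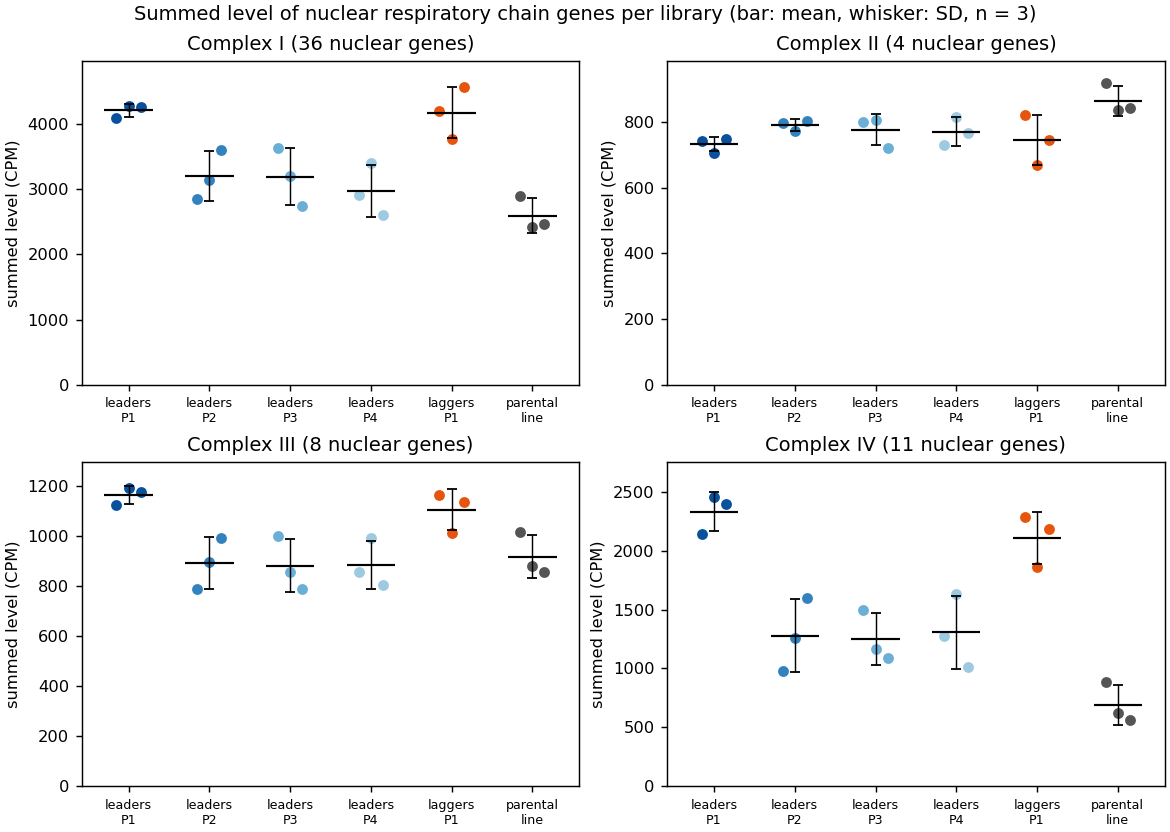
Summed level in CPM of the nuclear genes of each complex, per library (points), with the mean (bar) and SD (whisker) of 3 libraries a group. Complex IV separates every injected group from the parental line, at 980 CPM or more against at most 885 CPM, and complex II is highest in the parental line.

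Passage 1 leaders against the parental line asks what differs in cells that had led along the nerve once. Of the 59 genes, 44 were higher and 5 lower by edgeR's quasi-likelihood test at an adjusted p under 0.05, beside 45.7% of all tested genes called (23.2% higher and 22.4% lower). The libraries of the groups did not overlap for 52 members, beside 57.2% of all genes. The median log2 fold change of the members was 1.37, against 0.07 over all genes tested. In laggers against the parental line 44 were higher and 3 lower, beside 39.3% of all genes called (21.5% higher, 17.8% lower), with medians of 1.30 and 0.09, and 44 did not overlap, beside 42.8% of all genes. The genes called higher were shared for 42 of the 44 in each list, but the comparisons share the parental libraries. The share of all genes higher in both is not given here. In both comparisons 27 of 36 complex I genes, 1 of 4 complex II genes, 5 of 8 complex III genes and all 11 complex IV genes were higher. Adjusting the counts of each library for gene length and GC content left 36 higher in both comparisons, with 7 lower in passage 1 leaders and 8 lower in laggers. The shares of all genes called after this adjustment are not given here, so these counts and later ones with it have no background. The members' median then became 0.79 in passage 1 leaders and 0.64 in laggers, while the median of all genes moved to -0.17 and -0.12.

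**Figure D2:**
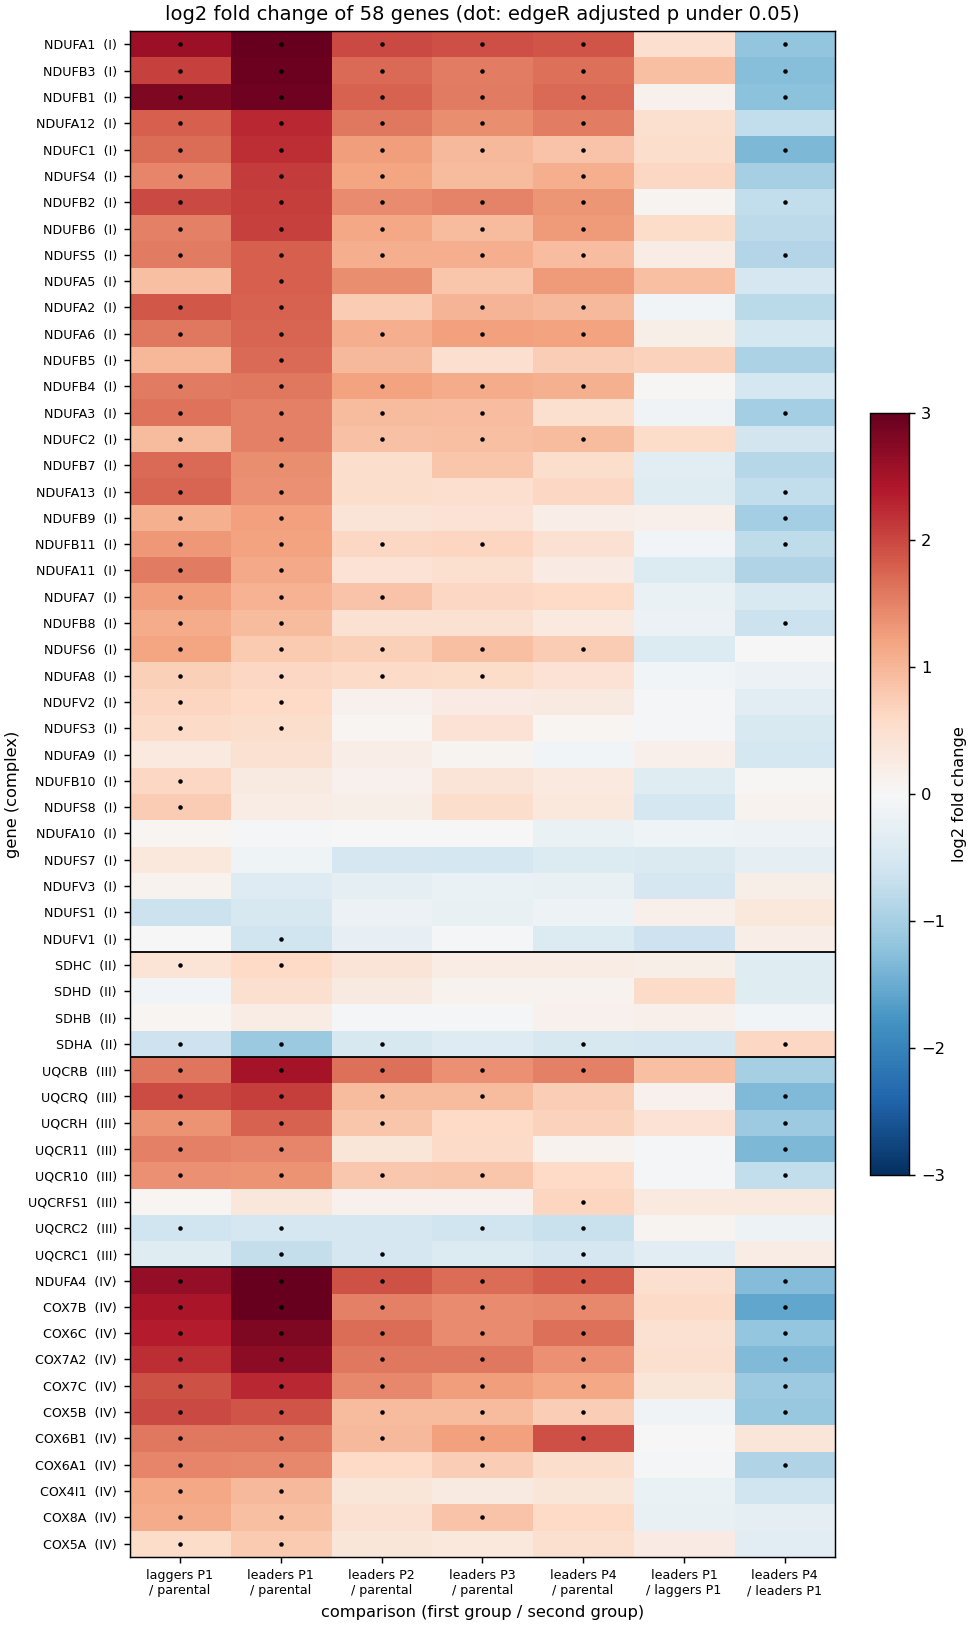
Log2 fold change of the genes (rows, grouped by complex, 1 member not shown) in 7 comparisons (columns, first group over second), coloured from -3 to 3, with a dot where edgeR's adjusted p was under 0.05. Passage 1 leaders and laggers have 44 genes called higher each, and SDHA, UQCRC1 and UQCRC2 are among the blue rows.

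All 11 genes of complex IV, cytochrome c oxidase, rose in passage 1 leaders and in laggers. NDUFA4, the subunit that binds at its surface, had 324, 364 and 394 CPM in passage 1 leaders and 367, 250 and 164 CPM in laggers, against 57.4, 44.8 and 23.4 CPM in the parental line. Every library of both injected groups lay above every parental one. The log2 fold change was 3.11 ± 0.39 (SE) in passage 1 leaders (edgeR adjusted p = 1.7e-05) and 2.64 ± 0.38 in laggers (adjusted p = 8.1e-05). COX7B, a small supernumerary subunit, had 161, 167 and 185 CPM in passage 1 leaders and 168, 110 and 69.2 CPM in laggers, against 26.7, 23.4 and 13.5 CPM in the parental line. The groups did not overlap, and the log2 fold change was 3.01 ± 0.42 in passage 1 leaders. COX6C and COX7A2, also supernumerary, changed by 2.80 ± 0.35 and 2.69 ± 0.40 in passage 1 leaders.

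COX7C, whose protein lies beside the core, had 175, 170 and 188 CPM in passage 1 leaders and 174, 134 and 105 CPM in laggers, against 45.1, 39.6 and 26.0 CPM in the parental line. All parental libraries were below all of these. COX4I1, the ubiquitous isoform of the subunit 4 that regulates the enzyme by ATP, had 394, 447 and 413 CPM in passage 1 leaders and 402, 430 and 618 CPM in laggers, against 279, 178 and 187 CPM in the parental line. Its change was smaller, 0.96 ± 0.22 in passage 1 leaders (edgeR adjusted p = 0.0020) and 1.17 ± 0.22 in laggers (adjusted p = 6.1e-04). COX5A, the partner of subunit 4, had the smallest called change of the complex, 0.79 ± 0.21 in passage 1 leaders and 0.55 ± 0.21 in laggers. The lagger call of COX5A was lost without lagger replicate 1 or 2 or parental replicate 2 or 3 (edgeR adjusted p up to 0.18). With adjustment for length and GC content 8 of the 11 genes still passed in each comparison, and COX6A1, COX5A and COX8A did not. In passage 1 leaders their adjusted log2 fold changes were 0.01 for COX6A1 (adjusted p = 0.99), against 1.44 ± 0.26 unadjusted, -0.12 for COX5A (adjusted p = 0.52) and 0.27 for COX8A (adjusted p = 0.18). In laggers they were 0.59 for COX6A1 (adjusted p = 0.15), -0.30 for COX5A (adjusted p = 0.098) and 0.27 for COX8A (adjusted p = 0.19), so COX5A changed sign in both.

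In complex I, NADH dehydrogenase, most of the genes that rose were for small supernumerary subunits. Of 29 supernumerary genes, 25 were higher and 0 lower in passage 1 leaders, with a median log2 fold change of 1.51, and 24 were higher and 0 lower in laggers, also with a median of 1.51. The 7 nuclear core genes, which hold the flavin and iron-sulfur centres and the quinone site, had 2 higher and 2 lower in passage 1 leaders with a median of -0.12, and 3 higher and 1 lower in laggers with a median of 0.31. The difference between these sets was not tested. With adjustment for length and GC content, the core genes NDUFS3, NDUFS7 and NDUFS8 were called higher in passage 1 leaders (0.55, 0.71 and 0.59). The core gene NDUFS1 was then called lower (-0.65), as was the supernumerary NDUFA8 (-0.32). The counts of both sets therefore depend on that adjustment.

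NDUFB1, a supernumerary membrane subunit, had 37.9, 47.9 and 50.1 CPM in passage 1 leaders and 62.8, 33.6 and 28.2 CPM in laggers, against 7.09, 5.97 and 4.92 CPM in the parental line. The groups were far apart, with a log2 fold change of 2.92 ± 0.40 in passage 1 leaders (edgeR adjusted p = 3.6e-05). NDUFA1, an accessory subunit required for assembly of the complex, had 125, 162 and 141 CPM in passage 1 leaders and 125, 96.3 and 79.5 CPM in laggers, against 22.6, 16.6 and 11.9 CPM in the parental line. It changed by 3.06 ± 0.33 in passage 1 leaders and 2.56 ± 0.33 in laggers. About 44.5% of its exonic bases overlap RNF113A, so its count is uncertain. NDUFC1, at 99.5, 127 and 108 CPM in passage 1 leaders against 25.0, 21.7 and 25.7 CPM in the parental line, had the smallest p of all members, with a log2 fold change of 2.21 ± 0.20 (edgeR adjusted p = 1.3e-06).

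Other supernumerary genes followed at varied sizes in passage 1 leaders. NDUFB3 changed by 2.94 ± 0.39, NDUFA12 by 2.26 ± 0.31 and NDUFB2 by 2.07 ± 0.24, all 3 also called in laggers and in passage 4. NDUFA3 changed by 1.51, NDUFA13 by 1.37, NDUFB9 by 1.23, NDUFB11 by 1.21 and NDUFB8 by 0.94, and these 5 were not called in passage 4 against the parental line. NDUFB9, for example, had 128, 128 and 142 CPM in passage 1 leaders, 65.7, 72.0 and 57.9 CPM in passage 4 and 118, 99.2 and 138 CPM in laggers, against 71.2, 51.1 and 46.8 CPM in the parental line. Its passage 4 libraries lay within the parental range or just above its highest library. Other genes overlap 48.5% of the exonic bases of NDUFB8, 44.9% of NDUFB11 and 35.9% of NDUFB2.

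NDUFV1 and NDUFS1, core genes of complex I, had lower means in passage 1 leaders than in the parental line. NDUFV1, which binds NADH and the flavin, had 176, 169 and 164 CPM in passage 1 leaders against 252, 195 and 323 CPM in the parental line, a log2 fold change of -0.60 ± 0.23 (edgeR adjusted p = 0.041), which was lost with adjustment for length and GC content (-0.03, adjusted p = 0.89). The call was also lost without any of the leader replicates and without parental replicate 1 or 3 (adjusted p up to 0.19). Its laggers, at 219, 220 and 341 CPM, overlapped the parental range. NDUFS1, the largest core subunit, averaged 99.4 CPM in passage 1 leaders against 139 CPM in the parental line, and its log2 fold change of -0.48 ± 0.26 did not pass (adjusted p = 0.14). With adjustment for length and GC content it was -0.65 and passed (adjusted p = 0.014).

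Complex III, cytochrome bc1, divided in the same comparisons. UQCRQ, a small subunit near cytochrome b, had 240, 308 and 286 CPM in passage 1 leaders and 272, 209 and 284 CPM in laggers, against 87.6, 58.3 and 52.2 CPM in the parental line. Its groups did not overlap and the log2 fold change was 2.07 ± 0.30 in passage 1 leaders (edgeR adjusted p = 5.9e-05) and 1.95 ± 0.30 in laggers. UQCRB, UQCRH, UQCR10 and UQCR11, the other small subunits, changed by 2.49, 1.77, 1.35 and 1.46 in passage 1 leaders. With adjustment for length and GC content UQCR10 no longer passed there (log2 fold change 0.30, adjusted p = 0.14).

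The large core proteins of complex III, UQCRC1 and UQCRC2, were lower in passage 1 leaders. UQCRC1, which with UQCRC2 forms the part facing the matrix, had 249, 244 and 250 CPM in passage 1 leaders, against 391, 341 and 483 CPM in the parental line. The groups were separate, at a log2 fold change of -0.71 ± 0.17 (edgeR adjusted p = 0.0029). In laggers UQCRC1 had 278, 280 and 386 CPM, overlapping the parental line, and did not pass (-0.36 ± 0.17, adjusted p = 0.098). With adjustment for length and GC content it was -0.45 in laggers and passed (edgeR adjusted p = 0.0023). UQCRC2 had 183, 149 and 173 CPM in passage 1 leaders and 192, 165 and 122 CPM in laggers, against 282, 264 and 177 CPM in the parental line. Its lowest parental library lay within both injected ranges, and its log2 fold change was -0.52 ± 0.20 in passage 1 leaders (edgeR adjusted p = 0.044) and -0.59 ± 0.20 in laggers (adjusted p = 0.026). The UQCRC2 call in passage 1 leaders was lost without any of the 3 leader replicates and without parental replicate 1 or 2 (adjusted p up to 0.24), and in laggers without lagger replicate 2 or 3 or parental replicate 1 or 2 (adjusted p up to 0.16). With adjustment for length and GC content UQCRC2 was -0.70 in passage 1 leaders (edgeR adjusted p = 0.0011) and -0.71 in laggers (adjusted p = 0.0010). Unadjusted, UQCRC1 was also called lower in passages 2 and 4 (-0.49 in both) but not 3. UQCRC2 was called lower in passages 3 and 4 (-0.60 and -0.68) but not 2. UQCRFS1, the Rieske iron-sulfur protein, was called higher in passage 4 only, at 148, 181 and 159 CPM against 123, 114 and 74.5 CPM in the parental line (log2 fold change 0.65 ± 0.20, edgeR adjusted p = 0.022). Without parental replicate 3 its value was 0.45 (adjusted p = 0.11), and without passage 4 replicate 2 it was 0.56 (adjusted p = 0.092).

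**Figure D3:**
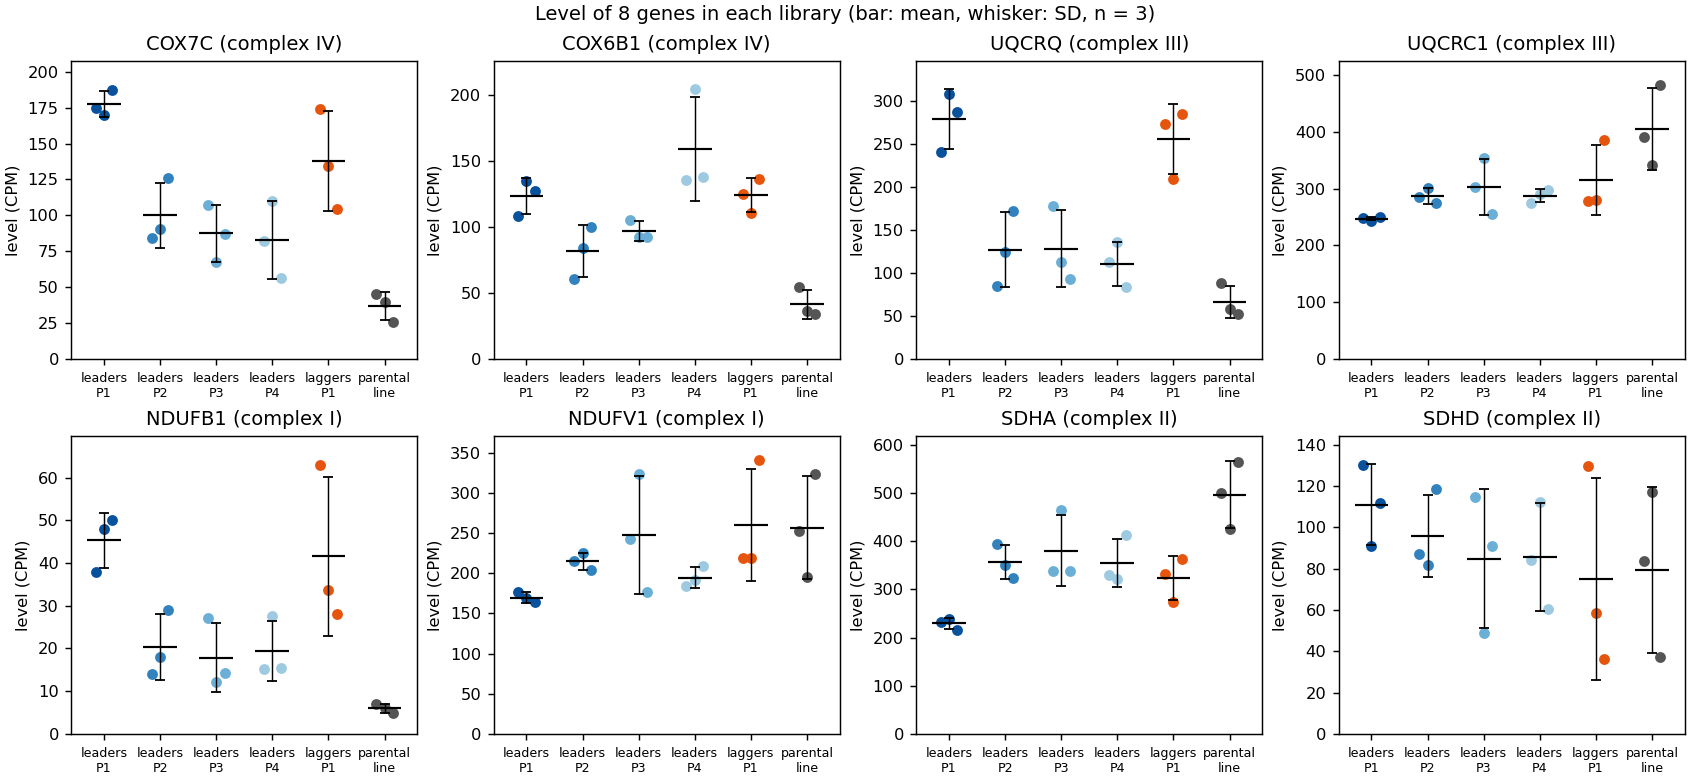
Level in CPM of 8 genes in each library (points), with the mean (bar) and SD (whisker) of 3 libraries a group. COX7C, UQCRQ and NDUFB1 are highest in passage 1 leaders and laggers, COX6B1 is highest in passage 4 leaders, and SDHA and UQCRC1 are highest in the parental line.

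Complex II held the member with the largest fall. SDHA, the flavoprotein that oxidises succinate, had 233, 239 and 216 CPM in passage 1 leaders, 395, 351 and 324 CPM in passage 2, 337, 465 and 339 CPM in passage 3, 331, 321 and 412 CPM in passage 4 and 332, 273 and 363 CPM in laggers, against 500, 424 and 563 CPM in the parental line. Passage 1 leaders lay below every other library and the parental line above all but 1, passage 3 replicate 2. The log2 fold change was -1.11 ± 0.18 in passage 1 leaders (edgeR adjusted p = 1.2e-04), -0.62 ± 0.17 in laggers (adjusted p = 0.010), -0.48 ± 0.17 in passage 2 (adjusted p = 0.048), -0.38 ± 0.17 in passage 3 (adjusted p = 0.12) and -0.48 ± 0.17 in passage 4 (adjusted p = 0.048). The lagger call was lost without lagger replicate 2 (adjusted p = 0.052). Leaving out 1 library at a time lost the passage 2 call in 5 of 6 cases (adjusted p up to 0.18) and the passage 4 call in 4 of 6 (adjusted p up to 0.17). SDHA has 3 named pseudogenes in the table that together reached 19.9 CPM at most, so its reads may be shared with them.

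The other complex II genes moved little. SDHC, a membrane anchor, averaged 247 ± 15.6 CPM in passage 1 leaders against 164 ± 28.5 CPM in the parental line and rose by 0.59 ± 0.15 (edgeR adjusted p = 0.0053). That call was lost with adjustment for length and GC content (0.43, adjusted p = 0.054). SDHB, the iron-sulfur subunit, averaged 145 ± 9.02 CPM in passage 1 leaders against 125 ± 18.3 CPM in the parental line and was called in none of the comparisons. With adjustment for length and GC content it was lower and passed, at -0.40 in passage 1 leaders (adjusted p = 0.013) and -0.54 in laggers (adjusted p = 0.0022). SDHD, the other membrane anchor, had 130, 90.9 and 112 CPM in passage 1 leaders and 130, 58.8 and 36.1 CPM in laggers, against 83.6, 117 and 37.4 CPM in the parental line. Its groups overlapped, and its SE was 0.45 in both comparisons. With adjustment for length and GC content, 3 of the 4 complex II genes were lower in laggers, 2 in passage 1 leaders and 2 in each of passages 2 and 3.

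Leaders and laggers of passage 1 were both recovered after the first injection, and comparing them sets the leading cells against those left behind. No member was called between them by edgeR, by DESeq2 or by limma-voom, beside 0.0618% of all genes called (0.0185% higher and 0.0432% lower), and 8 of the 59 had an unadjusted p under 0.05. The median log2 fold change was 0.08, against -0.06 over all genes. NDUFV3 had the smallest adjusted p of the members (0.22), at 51.5, 55.5 and 55.4 CPM in leaders against 71.8, 70.0 and 88.0 CPM in laggers, a log2 fold change of -0.50 (95% interval -0.84 to -0.16). For NDUFA4 the interval was -0.29 to 1.23 and for UQCRQ -0.49 to 0.74, so differences within these ranges remain compatible with these libraries. The libraries did not overlap for 14 members, beside 17.8% of all genes.

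The later leaders lay nearer to the parental line. In passage 2, 28 members were higher and 3 lower than in the parental line, beside 29.9% of all genes called (15.1% higher and 14.8% lower). Passage 3 had 28 higher and 2 lower, beside 24.6% (13.8% and 10.8%), and passage 4 had 23 higher and 4 lower, beside 27.7% (14.8% and 12.9%). Members without overlap numbered 35, 29 and 34, beside 48.7%, 38.1% and 43.7% of all genes. The members' medians were 0.61, 0.63 and 0.60, against 0.00, 0.01 and 0.03 over all genes. These counts depend on single libraries. In passage 2 the higher count fell to 16 without leader replicate 3 and 17 without parental replicate 3, in passage 3 to 13 without leader replicate 1 and 15 without parental replicate 3, and in passage 4 to 14 without leader replicate 2 and also 14 without parental replicate 3. Across all 5 comparisons with the parental line 20 members were higher in each one, 12 of complex I, 1 of complex III and 7 of complex IV, and 7 members were called in none. The comparisons share the parental libraries. The shares of all genes that were higher in each one or called in none are not given here, so these 2 counts have no background.

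Leaders of passage 4 were also set against leaders of passage 1, to ask what changed over the serial injections. Here 1 gene was higher and 22 were lower, beside 20.0% of all genes called (10.8% higher and 9.17% lower), with a median log2 fold change of -0.65 against -0.02 over all genes. No overlap was found for 48 members, beside 46.6% of all genes. The 22 lower genes were 11 of complex I, 4 of complex III and 7 of complex IV. All 22 were among the genes higher in passage 1 leaders than in the parental line, and 12 of them were also higher in passage 4. These comparisons share the passage 1 and passage 4 libraries, and the matching shares of all genes are not given here. COX7B had 60.3, 77.7 and 36.0 CPM in passage 4 against 161, 167 and 185 CPM in passage 1, the largest fall, at -1.56 ± 0.40 (edgeR adjusted p = 0.012). NDUFC1 had 47.6, 49.9 and 33.5 CPM in passage 4 against 99.5, 127 and 108 CPM in passage 1, at -1.35 ± 0.20 (adjusted p = 3.3e-04). UQCRQ had 112, 135 and 83.5 CPM in passage 4 against 240, 308 and 286 CPM in passage 1, at -1.33 ± 0.29 (adjusted p = 0.0053). None of these 3 genes overlapped between the passages. The lower count went to 9 without passage 1 replicate 2, 13 without passage 1 replicate 3, 8 without passage 4 replicate 1 and 5 without passage 4 replicate 3.

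SDHA was the gene that was higher in passage 4 than in passage 1, by 0.63 ± 0.17 (edgeR adjusted p = 0.019), at 331, 321 and 412 CPM against 233, 239 and 216 CPM. Without passage 4 replicate 3 it was 0.49 (adjusted p = 0.093), and without passage 1 replicate 3 it was 0.59 (adjusted p = 0.069). COX6B1, which bridges the monomers of the complex IV dimer, kept its highest level late. It had 108, 135 and 127 CPM in passage 1, 60.6, 84.1 and 99.6 CPM in passage 2, 105, 92.5 and 92.1 CPM in passage 3 and 135, 204 and 138 CPM in passage 4, against 54.1, 36.1 and 33.7 CPM in the parental line. Its log2 fold change in passage 4 was 1.94 ± 0.23 over the parental line (edgeR adjusted p = 2.5e-05) and 0.37 ± 0.22 over passage 1 (adjusted p = 0.27). After adjustment for length and GC content the difference from passage 1 was 0.77 and passed (adjusted p = 0.0081). COX6B1 and UQCRFS1 both lie on chromosome 19, as do 7 other members, and 3 of these 9 genes were lower in passage 4 than in passage 1.

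**Figure D4:**
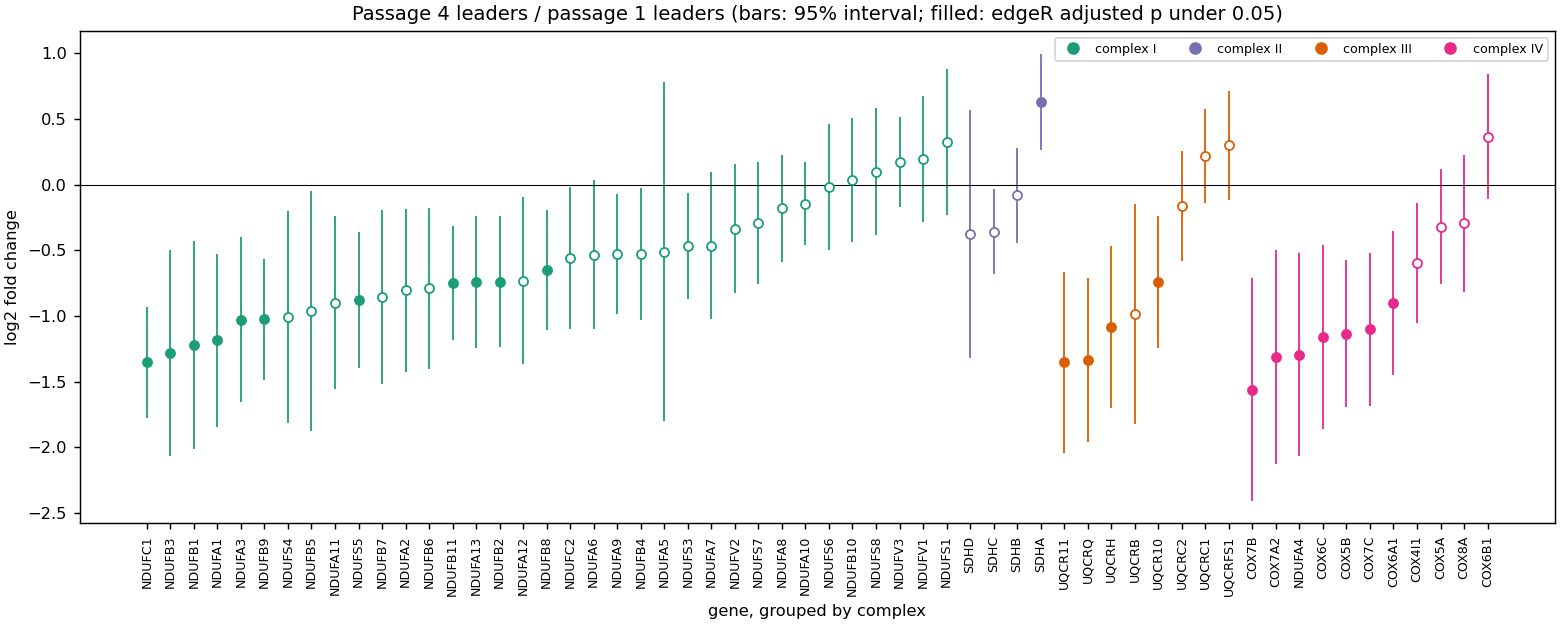
Log2 fold change of the genes in passage 4 leaders over passage 1 leaders, grouped by complex (colours, 1 member not shown), with 95% intervals. Filled points passed edgeR's adjusted p under 0.05, 22 below 0 and 1 above it, SDHA.

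Levels per length could be compared between genes. COX4I1 had the highest average over the groups among the members, at 448.3 CPM per kilobase of principal transcript. The averages of NDUFS5, a small complex I subunit, UQCRQ and COX5B were 292.7, 274.3 and 271.5 CPM per kilobase, but the order of the genes differed between groups. SDHA had the highest average of complex II at 149.2 CPM per kilobase, while in passage 1 leaders it was below SDHB, at 95.9 against 126 CPM per kilobase. The lowest values, such as UQCRB at 6.61 and SDHC at 15.1 CPM per kilobase, go with annotated principal transcripts of 5575 and 13566 bases, and those lengths may not be the ones expressed here. NDUFV3 was lowest in complex I, at 13.7, and COX7B in complex IV, at 55.2 CPM per kilobase. UQCR11, at 9.01 CPM per kilobase, is uncertain because another gene overlaps 10.9% of its exonic bases. In GENCODE 29, 23 of the 59 members share over 10% of their exonic bases with another gene and 33 have named pseudogenes. Reads with more than 1 alignment were 20.2% to 32.6% of entries in injected libraries against 13.9% to 16.4% in parental ones, and are not in the gene counts.

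Transcript length moved with the result. Principal transcripts of the members had a median of 930 bases and 33 of the 59 were under 1000 bases. Of those 33, 93.9% were higher in passage 1 leaders and 100% in laggers. Among all 730 tested genes of that length 65.9% were higher in passage 1 leaders and 65.2% in laggers. Of the 13 members of 1000 to 2000 bases 69.2% were higher and 7.69% lower in passage 1 leaders, beside 30.2% and 15.2% of all tested genes in that class. Of the 7 members of 2000 to 4000 bases 28.6% were higher and 57.1% lower in passage 1 leaders, beside 17.0% and 30.5% of the 5231 tested genes in that class. Of the 6 members over 4000 bases 33.3% were higher and 0% lower, beside 15.1% and 32.3%. From the shortest class to the longest, the members' median log2 fold changes were 1.46, 1.70, -0.52 and 0.20. Across the 59 members Spearman's correlation of length and log2 fold change was -0.40 in passage 1 leaders and -0.52 in laggers, a description across genes that share libraries. Many of the shortest members are small subunits, but not every small subunit has a short principal transcript. NDUFA4, of 2000 to 4000 bases, changed by 3.11 in passage 1 leaders, and UQCRB, of over 4000 bases, by 2.49. SDHA, a large subunit of 2000 to 4000 bases, changed by -1.11. The annotated lengths may not be the ones expressed here, and the parts of subunit size and transcript length were not tested.

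**Figure D5:**
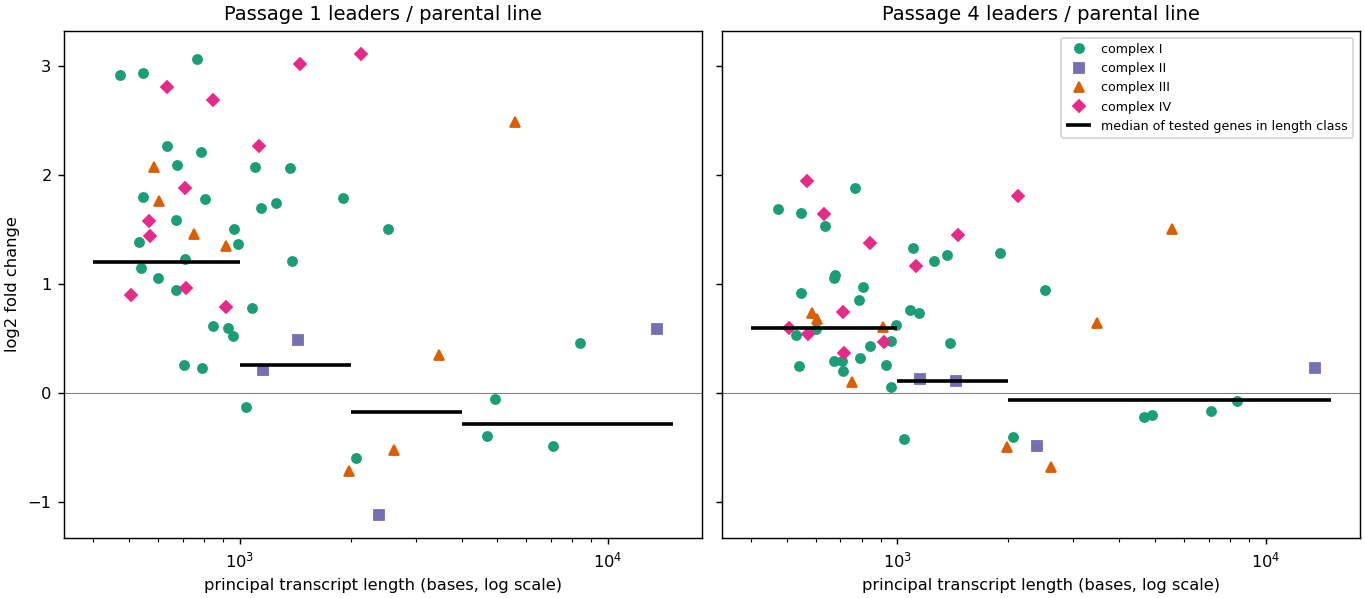
Log2 fold change of the members (marker and colour by complex, 1 not shown) against the length of its principal transcript on a log axis, for passage 1 leaders and passage 4 leaders over the parental line. Black lines give the median of all tested genes in 4 length classes, which in passage 1 leaders falls from class to class, to -0.28 over 4000 bases.

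Base composition went with the fold changes and separated libraries within groups. Spearman's correlation of GC content and log2 fold change describes the 59 members. It was -0.40 in passage 1 leaders and -0.14 in laggers, each over the parental line, and -0.74 in leaders against laggers. Of all tested genes under 45%, 45% to 55% and 55% or more GC, 30.3%, 24.4% and 13.9% were higher in passage 1 leaders. A cause was not tested. Genes under 45% GC took 20.9% of the counts of tested protein-coding genes in passage 3 leader replicate 2. The share was 16.8% in lagger replicate 3 and lay between these values in parental replicate 3, against 26.1% to 33.6% in the other 15 libraries. Of the 20 members under 45% GC, 18 were lowest of their group in parental replicate 3, 16 in passage 3 leader replicate 2 and 14 in lagger replicate 3. Of the 39 members of 45% GC or more, 17, 10 and 11 were lowest of their group in these libraries, in the same order. NDUFA5, an accessory subunit of complex I and the member of widest spread, had 115, 48.0 and 14.1 CPM in laggers against 29.1, 54.0 and 11.9 CPM in the parental line, an 8.11-fold range within the laggers. It was called higher in passage 1 leaders alone, at 111, 97.5 and 120 CPM (log2 fold change 1.79 ± 0.63, edgeR adjusted p = 0.028). That call was lost without leader replicate 1 or 3 or parental replicate 1 or 3 (adjusted p up to 0.11). With the 3 libraries left out, an alternative chosen after seeing the data, 43 members were higher in passage 1 leaders and 38 in laggers, and passage 4 against passage 1 had 34 lower. The shares of all genes called in that fit are not given here.

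The genes that work with these subunits did not all follow them. The counts of these lists stand beside 23.2% of all genes higher and 22.4% lower in passage 1 leaders, and 21.5% and 17.8% in laggers. The lists are not adjusted for gene length and GC content. In passage 1 leaders, 65.9% of all tested genes under 1000 bases were higher. Among those of 2000 to 4000 bases and over 4000 bases, 30.5% and 32.3% were lower. All 13 mitochondrially encoded subunits of the chain and of ATP synthase were higher in passage 1 leaders and in laggers. They made 2.04 to 3.10 counts per nuclear subunit count in passage 1 leaders and 1.97 to 2.96 in laggers, against 0.505 to 0.634 in the parental line. Of 18 nuclear genes of ATP synthase and its inhibitor, 15 were higher and 1 lower in passage 1 leaders, and 14 and 1 in laggers. The lower one was ATP5B, the catalytic beta subunit, at -0.63 in passage 1 leaders, while the small subunit ATP5I rose by 2.76. Of 39 tested assembly factors, 15 were higher and 8 lower in passage 1 leaders.

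All TCA cycle genes that passed were lower than in the parental line. Of 13, 0 were higher and 7 lower in passage 1 leaders, and 0 and 6 in laggers. CS, citrate synthase, had 118, 97.5 and 97.4 CPM in passage 1 leaders, against 241, 249 and 240.1 CPM in the parental line, at -1.22, and the groups did not overlap. Passage 4 had 4 higher and 0 lower than passage 1, beside 10.8% and 9.17% of all genes, among them OGDH, the 2-oxoglutarate dehydrogenase, at 1.71. Of 14 tested regulators of mitochondrial biogenesis, 0 were higher and 8 lower in passage 1 leaders and 0 and 6 in laggers. POLG, the mitochondrial DNA polymerase, fell by 2.00 on the log2 scale in passage 1 leaders, and ESRRA, a nuclear receptor that acts on many respiratory genes, fell by 1.14. NRF1 itself fell by 0.97. PPARGC1A, a coactivator of biogenesis, was at or near 0 in all libraries, at most 0.070 CPM. The tissue isoforms COX4I2, COX6A2, COX7A1, COX7B2, COX8C and COX6B2 were at most 0.210 CPM in any library and were not tested. CYC1, the cytochrome c1 subunit of complex III, was lower than in the parental line in all 4 leader passages, at -0.88 in passage 1 and -1.02 in passage 4. Of the 5 tested subunits outside the members, CYC1 among them, 3 were higher and 1 lower in passage 1 leaders, and 3 and 0 in laggers.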

How the data were processed

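The deposited file holds raw read counts per gene, 1 column per library. The tools that the authors list, per the submitters' processing notes, are HTSeq 0.5.3, STAR 2.5.0a, cutadapt 1.6 and DESeq 1.22.1. The genome build was not given in the sources used here. Per the labels' protocols, 2 ng of RNA was amplified with SMART-Seq v4, which does not mark strand, and read as paired 50-base reads. Quasi-likelihood tests of edgeR 4.0.16 (R 4.3.3) were run on 1 fit of all 18 libraries, TMM scaling, its expression filter and Benjamini-Hochberg adjustment over 16187 genes within each of 7 comparisons. CPM uses TMM-scaled library sizes. The common dispersion was 0.126. Lengths, GC content and overlaps come from GENCODE 29, in which 51812 of the table's identifiers were found. The 5 entries naming no gene were left out and took 27.6% to 60.6% of entries. The code was tested on simulated data. Replicates of a group differed beyond counting error. Named genes were the 4 called members of smallest adjusted p per complex and comparison, the SDH genes, the highest and lowest per length, and any called in opposite directions, with other members named for their values. 1 member is counted but not reported here. The members and lists were chosen with earlier results of these data known. Same-numbered libraries of laggers and the parental line deviated together (correlations 0.11, 0.13 and 0.40). The highest was for replicate 3, which was AT-poor in both groups. The main fit did not pair libraries, and a replicate block was run only as an alternative. Alternatives were DESeq2 1.42.0, limma 3.58.1 voom, DESeq2 size factors, no filter, only 2 groups, mitochondrial genes removed before scaling, length and GC offsets, a replicate block and leaving out each replicate.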

Additional observations from a re-analysis of the deposited data

Results flagged for a closer look

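The difference from the shared parental line was not the same in passage 4 and passage 1 leaders for 23 of the 59 genes, by edgeR's test of passage 4 against passage 1 leaders, in which the parental libraries cancel. Of these, 22 were lower in passage 4 and 1, SDHA, was higher, beside 20.0% of all tested genes called (10.8% higher and 9.17% lower).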

How the results depend on the processing

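With length and GC offsets COX5A, called higher, turned to -0.12 in passage 1 leaders and -0.30 in laggers, and without a call before, SDHB became lower at -0.40 and -0.54 and UQCRFS1 at -0.35 in laggers, with the same values under offsets with the replicate block. Of 4480 recomputed values of single genes, 161 more changed sign without a call under either setting, 78 of them in leaders against laggers of passage 1, where the members' median also went to -0.04 without lagger replicate 2. Members outside that recomputed set changed sign too with the offsets in passage 1 leaders. NDUFA8 went from 0.62, called higher, to -0.32, called lower (edgeR adjusted p = 0.047). NDUFS7 went from -0.12, without a call, to 0.71, called higher (edgeR adjusted p = 0.0038). NDUFV2 went from 0.59, called higher, to -0.48 without a call (edgeR adjusted p = 0.21). Between 40 and 44 members were higher in passage 1 leaders and 38 to 43 in laggers with each replicate left out in turn. The same gave 16 to 30 in passage 2, 13 to 26 in passage 3 and 14 to 27 in passage 4. Lower members ran 3 to 4, 1 to 4, 0 to 3, 1 to 3 and 1 to 3 in passage 1 leaders, laggers and passages 2, 3 and 4. Passage 4 against passage 1 ran 5 to 25 lower and 0 to 1 higher. Without the filter on low counts the lower counts were 0 in passage 2, 1 in passage 3 and 2 in passage 4, and 0 were higher in passage 4 against passage 1. Length and GC offsets gave 8 lower in laggers, 5 in passage 2, 5 in passage 3 and 3 higher in passage 4 against passage 1, and with the replicate block 8, 5 in passage 3 and 3. Fits on only 2 groups gave 0 lower in laggers, 0 in passage 2, 1 in passage 3, 1 in passage 4 and 34 in passage 4 against passage 1. The replicate block alone gave 3 lower in passage 1 leaders, 1 in passage 2 and 2 in passage 4, and 43 higher and 3 lower in laggers. Leaving out the 3 AT-poor libraries gave 2 lower in passage 4 and 34 in passage 4 against passage 1. The causes were not tested, and the shares of all genes called under these alternatives are not given here. Same-numbered libraries did not all correlate over 0.1 outside the comparison of laggers with the parental line, so the block there shares only a number. Depth did not limit detection of the members, but 3 libraries a group limit precision.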
